A study of Mus musculus with 6 samples.

Results

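The 8 genes described here encode receptors by which macrophages take up modified lipoproteins, oxidized lipids and lipoprotein particles, together with the endosomal macrophage protein CD68. They are Msr1 and Marco (class A scavenger receptors), Cd36 and Scarb1 (class B), Olr1 (the lectin-like receptor for oxidized LDL), Lrp1 and Vldlr (endocytic lipoprotein receptors) and Cd68. All 8 were found by gene symbol among the 24341 genes of the deposited table, and the rule that chose them names their function and uses no measured value, although earlier results of these data were known when it was set. Alveolar macrophages (AMs), the macrophages of the lung airspaces, came from the bronchoalveolar lavage (BAL) of female C57BL/6 mice of 6 to 10 weeks that were either CD44+/+ or CD44-/-. CD44 is the surface receptor for the matrix polysaccharide hyaluronan, and CD44-/- mice lack it in every cell and not in AMs alone. RNA was sequenced in 3 samples per genotype, each pooled from the BAL of more than 1 mouse, so replicate error is the spread between pools. The pools did not all hold the same number of mice, and each was weighted alike. Values are in FPKM, a measure scaled to transcript length and to the mapped fragments of the sample, as computed by the authors with Cufflinks. Because FPKM is per length, levels of different genes can be set beside each other.

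In CD44+/+ AMs the targeted gene, Cd44, had 534 ± 6.68 FPKM (SD, n = 3). CD44-/- AMs had 53.5 ± 1.87 FPKM (SD, n = 3) of it, and the 6 samples fell on the side given by their labelled genotype. Read totals are unknown, but relative depth could be estimated from the spacing of the lowest values and was 0.815 to 1.05 of that of CD44+/+ replicate 1. Markers of AMs were high in every sample, with Siglecf at 243 to 268 FPKM and Itgax (CD11c) at 435 to 495 FPKM. Of the 9 AM markers in the table, 2 had no overlap between the genotypes, where 11.6% of all genes tested had none, and 0 passed the test described next. Itgax was the higher in CD44-/- AMs (log2 difference 0.08, limma adjusted p = 0.809) and Krt79 the lower (-0.38, limma adjusted p = 0.185). Differences between genotypes are given as log2 differences, CD44-/- over CD44+/+, on the scale log2(FPKM + 0.1). They were tested with limma over the 10800 genes that averaged 0.5 FPKM or more across the samples, with p-values adjusted by the Benjamini-Hochberg method over all of them.

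Scavenger receptors bind a broad range of polyanionic ligands, among them oxidized and acetylated lipoproteins, bacterial surfaces and dying cells. Unlike the receptors for native lipoproteins, many are not shut off when a cell fills with cholesterol, and their uptake is known as a route to lipid-laden foamy macrophages. In the alveolus, AMs take up and break down surfactant, a mixture of phospholipids, cholesterol and proteins, and surfactant lipids can be oxidized there.

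Of the 8 receptor genes, 7 were well expressed in AMs and 1, Vldlr, was close to 0. In CD44+/+ AMs the mean levels ran from Cd68 (876 FPKM) through Marco (382 FPKM), Lrp1 (202 FPKM), Olr1 (180.4 FPKM), Cd36 (165 FPKM) and Scarb1 (97.5 FPKM) down to Msr1 (15.7 FPKM). The order of the means was the same in CD44-/- AMs. Cd68 lay above 99.6% of all genes tested in its mean level over the 6 samples, Marco above 98.5%, Lrp1 above 96.4%, Olr1 above 95.5%, Cd36 above 95.3%, Scarb1 above 92.0% and Msr1 above 55.3%. Cd68 was highest and Marco next in each of the 6 samples, and Scarb1, Msr1 and Vldlr followed the others in that order in each of them. Lrp1, Olr1 and Cd36 traded places. In CD44+/+ replicate 1 the order was Cd36, Olr1 and Lrp1, in CD44-/- replicate 1 it was Lrp1, Cd36 and Olr1, and in the other 4 samples it was Lrp1, Olr1 and Cd36. The ranges of Olr1 and Cd36 overlapped in both genotypes, so these neighbours did not differ in level beyond their spread, whereas the ranges of Lrp1 and Olr1 overlapped in CD44+/+ and not in CD44-/- AMs.

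**Figure D1:**
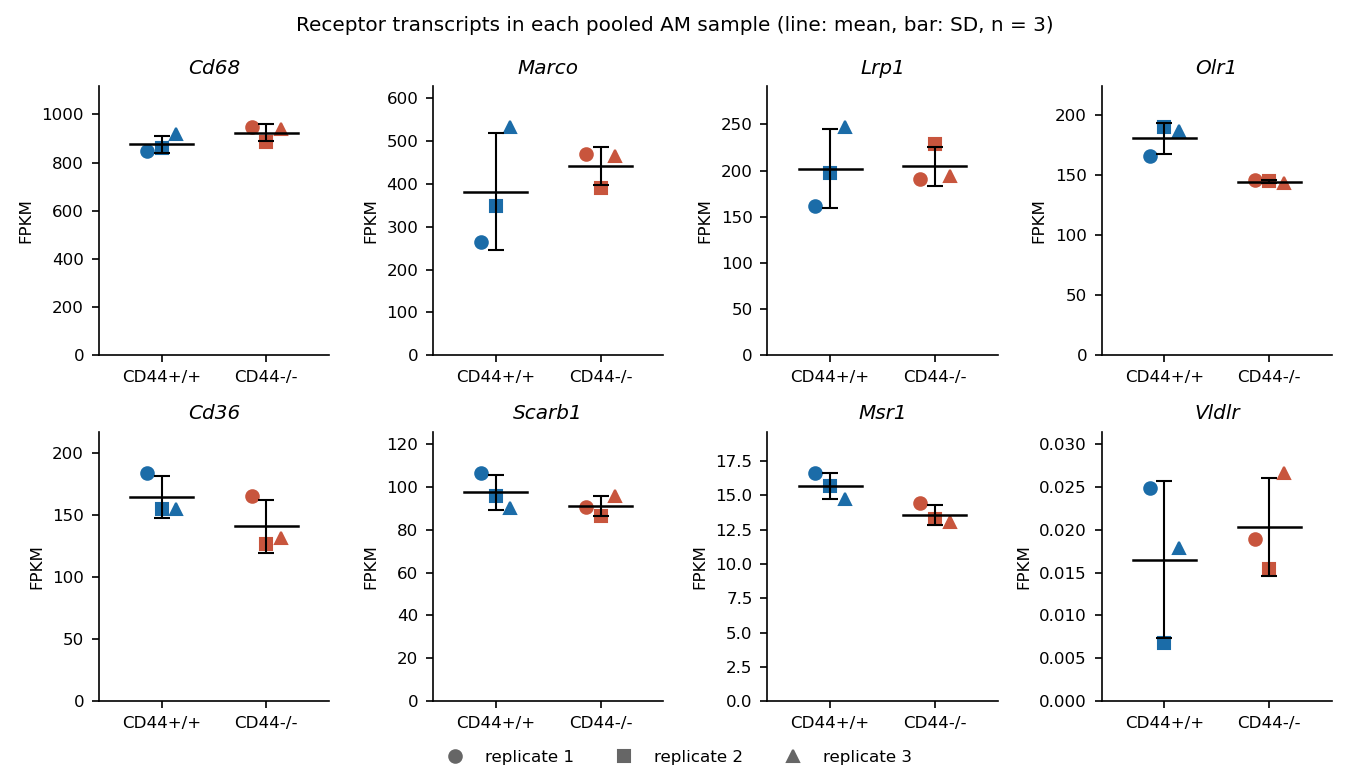
Level of each of the 8 receptor genes in FPKM (vertical axis, linear from 0) in the CD44+/+ (blue) and CD44-/- (red) AM samples. Each symbol is 1 pooled sample with its replicate number by shape, the line is the mean and the bar the SD (n = 3); the Olr1 and Msr1 values of the genotypes do not overlap, while those of the other 6 genes do.

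The stretch just before the transcription start of 3 receptor genes is shown because these were the receptor with the largest difference relative to its error (Olr1) and the pair with the highest levels (Cd68 and Marco). Sequences of this kind from RefSeq (GRCm38.p6, the patch level of mm10 used by RefSeq) were on hand for 6 of the 8 genes. Each run holds the 250 bases before the start, 5′ to 3′ on the minus strand that carries all 3 genes. Capitals mark TGANTCA, the letters bound by AP-1 factors, and GAGGAA or its complement TTCCTC, the core of sites for the myeloid factor PU.1.
Olr1, chr6:129507166-129507415: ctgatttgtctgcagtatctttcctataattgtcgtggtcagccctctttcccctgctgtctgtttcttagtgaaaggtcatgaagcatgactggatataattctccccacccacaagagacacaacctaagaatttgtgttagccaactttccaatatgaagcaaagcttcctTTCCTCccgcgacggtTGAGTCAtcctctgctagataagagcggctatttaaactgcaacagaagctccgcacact
Cd68, chr11:69666171-69666420: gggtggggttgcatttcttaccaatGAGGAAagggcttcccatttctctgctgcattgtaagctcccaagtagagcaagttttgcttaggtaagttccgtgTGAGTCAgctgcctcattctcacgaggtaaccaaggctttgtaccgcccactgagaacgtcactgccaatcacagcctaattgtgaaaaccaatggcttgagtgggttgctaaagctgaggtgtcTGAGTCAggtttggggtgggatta
Marco, chr1:120505025-120505274: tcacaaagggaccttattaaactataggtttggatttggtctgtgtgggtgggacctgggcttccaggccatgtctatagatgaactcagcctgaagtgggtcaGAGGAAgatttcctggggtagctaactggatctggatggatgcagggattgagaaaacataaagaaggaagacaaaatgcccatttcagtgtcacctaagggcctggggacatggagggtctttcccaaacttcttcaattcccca
Searched on both strands, TGANTCA (a palindrome) stood 60 bases before the start of Olr1 and 149 and 24 bases before that of Cd68, and was absent from this window of Marco, Lrp1 and Vldlr. The RefSeq window of Cd36 precedes a start inside the gene as annotated by GENCODE and is not described. GAGGAA stood 146 bases before the start of Marco and 225 before that of Cd68, and its complement 76 bases before that of Olr1 and 171 before 1 of the listed starts of Vldlr. No match overlapped another. Of all 32851 RefSeq promoter windows of this length, 6.75% held TGANTCA and 23.3% held GAGGAA on either strand. These are matches of letters, and binding was not measured here.

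In CD44-/- AMs, Olr1, Cd36, Msr1 and Scarb1 had lower means than in CD44+/+ AMs and Marco, Cd68 and Lrp1 had higher means, with log2 differences from -0.32 (Olr1) to 0.26 (Marco). None of the 7 receptor genes tested passed an adjusted p of 0.05 in limma, where 0.111% of all genes tested did (12 of 10800). At an unadjusted p under 0.05 there were 2 of 7, Olr1 and Msr1, both lower, against 7.69% of all genes in either direction and 2.94% in the lower direction. The same 2 genes had no overlap between the genotypes, against 11.6% of all genes, and 4.88% with CD44-/- below CD44+/+. The median log2 difference of the 7 genes was -0.10, beside 0.01 over all genes tested. Samples of the same replicate number varied together across genes, and with the replicate number as a block no receptor gene passed either (0.0833% of all genes did), while 3 of 7 (Olr1, Cd36 and Msr1) had an unadjusted p under 0.05 against 9.71% of all genes. In BAL cells as a whole, fewer cells with a transcript and less of it per cell cannot be told apart.

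**Figure D2:**
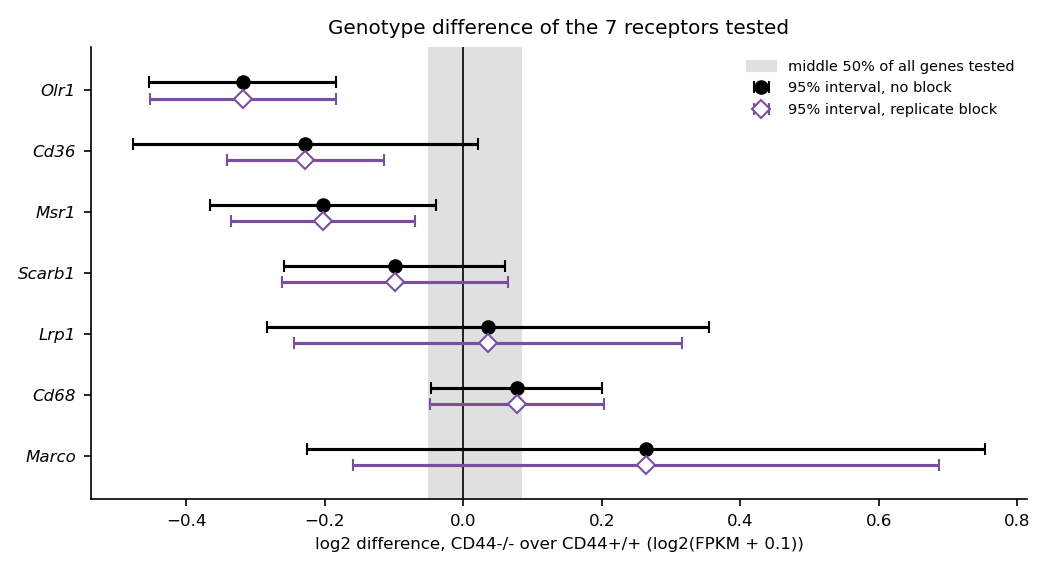
Log2 difference in expression, CD44-/- over CD44+/+ (horizontal axis), for the 7 receptor genes tested, with 95% intervals from limma without (filled circles) and with (open diamonds) the replicate block. The grey band holds the middle 50% of all genes tested, from -0.05 to 0.08; the intervals of Olr1 and Msr1 lie below 0 in both fits and that of Cd36 only with the block.

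Olr1, the gene of the receptor LOX-1 that binds oxidized LDL and oxidized phospholipids, lies at mm10 chr6:129485244-129507165 on the minus strand. Its level was 166, 190 and 186 FPKM in CD44+/+ replicates 1, 2 and 3 and 146, 145 and 143 FPKM in CD44-/- replicates 1, 2 and 3. Every CD44-/- sample was below every CD44+/+ sample, and the CD44-/- values lay within a narrow range of each other. Olr1 averaged 180.4 ± 13.1 FPKM (SD, n = 3) in CD44+/+ AMs against 144 ± 1.40 FPKM (SD, n = 3) in CD44-/- AMs, or 80.0% of the CD44+/+ level. The log2 difference was -0.32 (standard error 0.06, 95% interval -0.45 to -0.18, limma adjusted p = 0.157). An exact two-sided permutation test gave p = 0.1, the lowest it can give with groups of this size. Olr1 passed an adjusted p of 0.05 when CD44+/+ replicate 1, its lowest CD44+/+ sample, was left out (log2 difference -0.38, limma adjusted p = 0.0277), and in no other alternative.

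Msr1, the gene of scavenger receptor A1, a trimeric receptor for acetylated and oxidized LDL, lies at chr8:39581685-39642673 on the minus strand. Its level was 16.6, 15.7 and 14.7 FPKM in CD44+/+ and 14.4, 13.3 and 13.1 FPKM in CD44-/- replicates 1, 2 and 3. The genotypes did not overlap, although the gap between CD44+/+ replicate 3 and CD44-/- replicate 1 was smaller than the range within either genotype. Msr1 averaged 15.7 ± 0.955 FPKM (SD, n = 3) in CD44+/+ against 13.6 ± 0.727 FPKM (SD, n = 3) in CD44-/- AMs, with a log2 difference of -0.20 (standard error 0.07, 95% interval -0.37 to -0.04, limma adjusted p = 0.524). The deposited table places its Cufflinks locus at chr8:39467448-40227787, wider than the annotated gene, but no other protein-coding gene of GENCODE vM21 lies there.

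Marco, the gene of the other class A receptor, is typical of AMs and binds inhaled particles and bacteria as well as modified lipoproteins. It lies at chr1:120474538-120505024 on the minus strand. Its level was 264, 349 and 532 FPKM in the CD44+/+ samples and 469, 389 and 465 FPKM in the CD44-/- samples. All 3 CD44-/- values lay inside the range of the CD44+/+ values, which varied more among themselves (coefficient of variation 35.9%, against 10.2% in CD44-/- AMs). Marco averaged 382 ± 137 FPKM (SD, n = 3) in CD44+/+ against 441 ± 45.1 FPKM (SD, n = 3) in CD44-/- AMs. The resulting log2 difference was 0.26 (standard error 0.21, 95% interval -0.23 to 0.75, limma adjusted p = 0.900). It was 0.03 without CD44+/+ replicate 1 and 0.53 without CD44+/+ replicate 3, and neither passed. Within a sample, Marco was 15.9 to 36.2 times as high as Msr1 in FPKM.

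Cd36, the gene of a class B receptor for long-chain fatty acids, oxidized LDL and oxidized phospholipids, lies at chr5:17781690-17888801 on the minus strand. Its level was 184, 155 and 155 FPKM in CD44+/+ and 166, 126 and 131 FPKM in CD44-/- replicates 1, 2 and 3. In both genotypes replicate 1 was the highest, and CD44-/- replicate 1 lay above CD44+/+ replicates 2 and 3, so the groups overlapped. Within each same-numbered pair the CD44-/- sample was the lower, by -0.15, -0.30 and -0.24 on the log2 scale, as it was in every pair for Olr1 and Msr1 and for 12.2% of all genes tested. Its log2 difference of -0.23 had a 95% interval of -0.48 to 0.02 without the block and of -0.34 to -0.11 with it. It passed an adjusted p of 0.05 in neither fit (limma adjusted p = 0.694 and 0.230).

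Scarb1, the gene of the HDL receptor SR-BI, which takes up cholesteryl esters selectively, lies at chr5:125277087-125341094 on the minus strand. Its level was 106, 95.7 and 90.3 FPKM in CD44+/+ and 90.5, 86.4 and 95.8 FPKM in CD44-/- replicates 1, 2 and 3. The values of the genotypes overlapped, and CD44+/+ replicate 1 was the only CD44+/+ sample above all 3 CD44-/- samples. Scarb1 averaged 97.5 ± 8.22 FPKM (SD, n = 3) in CD44+/+ against 90.9 ± 4.70 FPKM (SD, n = 3) in CD44-/- AMs, with a log2 difference of -0.10 (standard error 0.07, 95% interval -0.26 to 0.06, limma adjusted p = 0.856). The interval runs from 83.6% to 104% of the CD44+/+ level. Cd36 was 1.37 to 1.83 times as high as Scarb1 in FPKM in the 6 samples. The annotation holds another entry, Gm42633, that overlaps Scarb1 on the same strand.

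Cd68, the gene of a heavily glycosylated protein of late endosomes and lysosomes that also binds oxidized LDL, lies at chr11:69664213-69666153 on the minus strand. Its level was 849, 862 and 917 FPKM in CD44+/+ and 948, 884 and 941 FPKM in CD44-/- replicates 1, 2 and 3. CD44-/- was the higher in each same-numbered pair, but CD44+/+ replicate 3 lay above CD44-/- replicate 2. Cd68 averaged 876 ± 36.1 FPKM (SD, n = 3) in CD44+/+ against 924 ± 34.7 FPKM (SD, n = 3) in CD44-/- AMs, with a log2 difference of 0.08 (standard error 0.05, 95% interval -0.05 to 0.20, limma adjusted p = 0.856). Its interval, from 96.8% to 115% of the CD44+/+ level, was the narrowest of the 7 genes on the log2 scale.

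Lrp1 encodes a large endocytic receptor for remnant lipoproteins, protease complexes and dying cells, and lies at chr10:127538161-127621148 on the minus strand. Its level was 162, 197 and 247 FPKM in CD44+/+ and 191, 229 and 194 FPKM in CD44-/- replicates 1, 2 and 3. As for Marco, the CD44-/- values lay within the range of the CD44+/+ values. Lrp1 averaged 202 ± 42.7 FPKM (SD, n = 3) in CD44+/+ against 205 ± 21.1 FPKM (SD, n = 3) in CD44-/- AMs. The resulting log2 difference of 0.04 (standard error 0.14, 95% interval -0.28 to 0.35, limma adjusted p = 0.989) turned negative without CD44+/+ replicate 1 (-0.11) or without CD44-/- replicate 2 (-0.05). An antisense transcript, Gm16217, overlaps Lrp1 in the annotation. The library kit kept strand, but the strand setting of the counting was not given in the sources used here.

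Vldlr encodes the receptor for triglyceride-rich very low density lipoprotein, which is best known from muscle and fat tissue, and it lies at chr19:27216484-27254231 on the plus strand. Its level was 0.0249, 0.00682 and 0.0179 FPKM in CD44+/+ and 0.0189, 0.0154 and 0.0266 FPKM in CD44-/- replicates 1, 2 and 3. All 6 values lie far under the limit of 0.5 FPKM and under the 0.1 FPKM added before the log, so no fold was taken and Vldlr was not tested.

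The 8 genes summed to 1748, 1864 and 2142 FPKM in CD44+/+ and to 2024, 1873 and 1983 FPKM in CD44-/- replicates 1, 2 and 3, with overlap. This was 0.351% to 0.435% of all FPKM in a sample. Cd68 made up 42.8% to 48.6% of the sum and Marco 15.1% to 24.8%. The share of Olr1 was 9.44% ± 0.744 (SD, n = 3) in CD44+/+ AMs against 7.38% ± 0.300 (SD, n = 3) in CD44-/- AMs and did not overlap, while the shares of the other genes overlapped. The ratio of Olr1 to Lrp1 was 1.02, 0.963 and 0.753 in CD44+/+ and 0.763, 0.632 and 0.737 in CD44-/- replicates 1, 2 and 3, and the overlap came from CD44+/+ replicate 3, where Lrp1 was highest.

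Among the CD44+/+ samples, replicate 1 stood apart in several receptor genes. It held the highest of the 6 values of Cd36, Msr1 and Scarb1 and the lowest of the 6 values of Marco, Lrp1 and Cd68. Over all genes tested, 29.9% had their highest value in this sample and 9.97% their lowest. CD44+/+ replicate 3 held the highest values of Marco and Lrp1, where 9.58% of all genes had theirs. The CD44-/- samples did not divide the genes in this way, since Cd36, Marco and Cd68 were all highest in replicate 1 and lowest in replicate 2 of that genotype, and Lrp1 was highest in replicate 2. The spread within genotypes was large for Marco (SD 0.38 on the log2 scale, pooled over the genotypes), Lrp1 (0.24) and Cd36 (0.18), above that of 99.0%, 97.1% and 92.9% of the genes that averaged 10 FPKM or more. It was 0.08 for Olr1, above that of 44.9% of these genes. Of the 6 neutrophil markers, S100a9 was lowest in CD44+/+ replicate 1, at 0.493 FPKM. It was at 15.8 and 18.9 FPKM in the other CD44+/+ samples and 1.80 to 4.20 FPKM in the CD44-/- samples. S100a8 and Mmp9 were also lowest of the 6 samples there, at 17.2 and 0.0842 FPKM. Retnlg, at 0.128 FPKM, was the lowest of the CD44+/+ values. The remaining markers differed from these. Cxcr2, at 3.97 FPKM, was the highest of the CD44+/+ values and Csf3r, at 11.8 FPKM, lay between the other CD44+/+ values. The part of the neutrophil markers in the receptor differences was not tested.

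**Figure D3:**
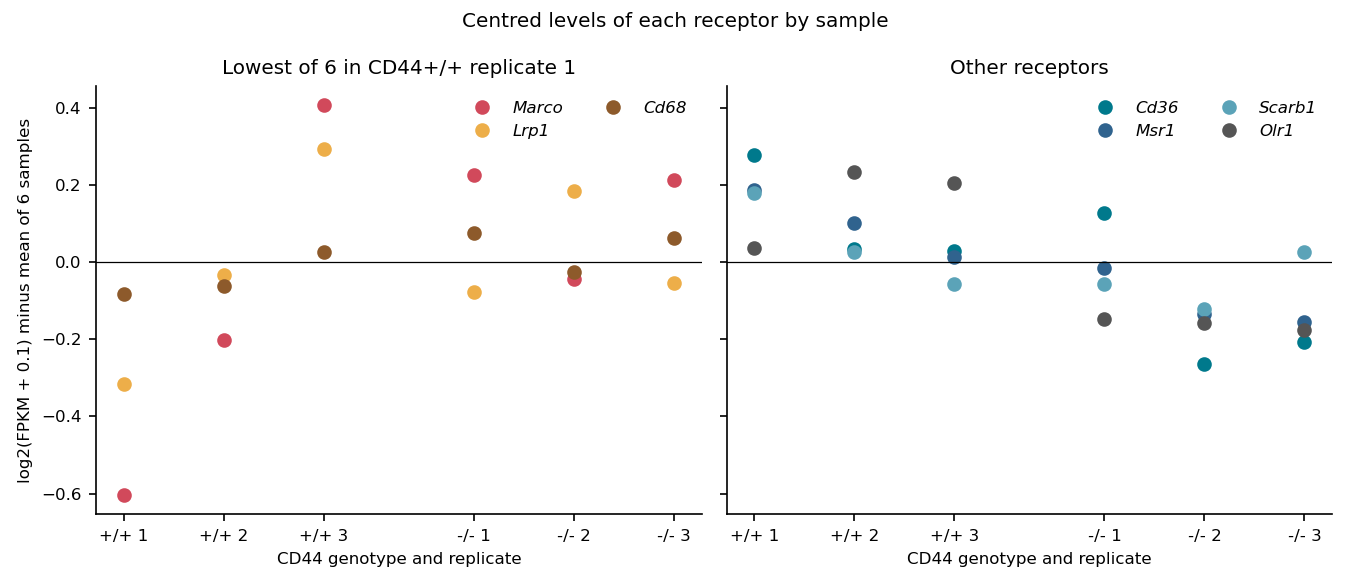
Level of each receptor gene in each AM sample, as log2(FPKM + 0.1) minus the gene's mean over the 6 samples (vertical axis), by genotype and replicate number (horizontal axis). Marco, Lrp1 and Cd68 (left) have their lowest value in CD44+/+ replicate 1, with Marco at -0.60, while Cd36, Msr1 and Scarb1 (right) have their highest value there and Olr1 separates by genotype.

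The genes most similar in profile to a receptor gene were taken as those with the smallest root mean square difference in centred log2 level over the 6 samples. They describe these samples only, and the 6 points share the same libraries. For Marco they were the metallothionein genes Mt2 (0.10) and Mt1 (0.11), at 312 and 826 FPKM in CD44+/+ AMs. For Olr1 they were Fam83f (0.04) and Ppm1j (0.05), for Cd36 Spice1 (0.04) and Zfp438 (0.05), and for Lrp1 Gpt (0.06) and Slfn5 (0.06). Fbxl5 was close to Msr1 (0.02). Scarb1 was closest to Pfkfb3 (0.02) and Prmt3 (0.03), and Cd68 to Mccc1 (0.02) and Serf2 (0.03). Among the receptor genes themselves, Msr1 and Scarb1 were closest to each other (0.09), Msr1 was also the receptor gene closest to Cd36 (0.09) and Olr1 (0.13), and Marco was furthest from its closest receptor gene, Lrp1 (0.24).

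Genes that act with these receptors were compared as 5 lists holding 48 genes, of which 36 were tested. None passed an adjusted p of 0.05 in limma, 8 had an unadjusted p under 0.05 (6 higher and 2 lower in CD44-/- AMs) where 7.69% of all genes tested did, and 11 had no overlap between the genotypes where 11.6% of all genes had none. Among 13 other scavenger receptor genes, 6 were tested. Mrc1, which encodes the mannose receptor CD206, was the most abundant of them at 493 to 535 FPKM, with a log2 difference of -0.08 (limma adjusted p = 0.748) and no overlap. Scarb2, the gene of a lysosomal relative of Cd36, was at 186 to 213 FPKM with overlap. Ager, the gene of the receptor for advanced glycation end products, which is abundant in alveolar type 1 cells, was at 0.937, 0.952 and 1.16 FPKM in CD44+/+ and 2.50, 1.39 and 1.49 FPKM in CD44-/- replicates 1, 2 and 3 (log2 difference 0.72, limma adjusted p = 0.476). Cd163, Stab1, Stab2, Scara3 and Scarf1 averaged under 0.5 FPKM and were not tested, and Scara5 and Megf10 were listed at 0 in all 6.

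Of 11 other genes of the lipoprotein receptor family, 8 were tested. Lrp10 and Lrp12 were the highest, at 81.5 to 87.1 and 79.2 to 93.2 FPKM, and both overlapped between the genotypes. Lrp4 was at 13.2 to 16.6 FPKM without overlap (log2 difference 0.18, limma adjusted p = 0.592). Among chaperones, adaptors and degraders of these receptors, Lrpap1, the chaperone that keeps Lrp1 free of ligand during its synthesis, was at 34.1 to 35.2 FPKM with overlap, and the 95% interval of its log2 difference was -0.10 to 0.11. Mylip encodes a ubiquitin ligase that sends receptors of this family for degradation and is induced by the sterol sensor LXR. It was at 32.3, 28.0 and 26.9 FPKM in CD44+/+ and 34.2, 38.1 and 32.7 FPKM in CD44-/- replicates 1, 2 and 3, without overlap (log2 difference 0.27, standard error 0.08, limma adjusted p = 0.470).

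All 9 genes for the handling of lipid after uptake were tested and 2 had no overlap, both lower in CD44-/- AMs, as 4.88% of all genes tested were. The log2 differences were positive in 5 and negative in 4. The largest was that of Fabp5, a fatty acid carrier, at 0.28 with overlap, higher in all 3 same-numbered pairs (limma adjusted p = 0.586). Its 95% interval was 0.03 to 0.54 without the block and -0.0028 to 0.57 with it. Lpl, the gene of lipoprotein lipase, was at 934 to 1300 FPKM, above every receptor gene except for Cd68 in CD44-/- replicate 1, with a log2 difference of -0.19 (limma adjusted p = 0.672). Acsl1, which activates fatty acids, had a log2 difference of -0.11 (limma adjusted p = 0.685). Lipa, Npc1 and Npc2, which hydrolyze and export cholesterol from lysosomes, had log2 differences of -0.03, 0.04 and 0.02 with overlap.

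Of 8 genes for known regulators of the receptors, 5 had no overlap between genotypes, 3 higher and 2 lower in CD44-/- AMs, beside the 11.6% of all genes. Nfe2l2, which encodes NRF2, the oxidant-sensing factor known to drive Cd36 and Marco in macrophages, was at 117, 117 and 126 FPKM in CD44+/+ and 105, 103 and 102 FPKM in CD44-/- replicates 1, 2 and 3. Its log2 difference was -0.21 (standard error 0.05, 95% interval -0.33 to -0.10, limma adjusted p = 0.266), and it was the smallest adjusted p of the 5 lists. Nr1h3, the gene of LXR alpha, had a log2 difference of 0.22 (limma adjusted p = 0.415) and its partner Rxra of 0.14 (0.484). The remaining genes without overlap were Srebf2 (-0.34) and Srebf1 (0.10), which encode factors of sterol and fatty acid synthesis. Spi1, which encodes PU.1, was at 359 to 410 FPKM and overlapped, and so did Pparg, at 134 to 159 FPKM.

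**Figure D4:**
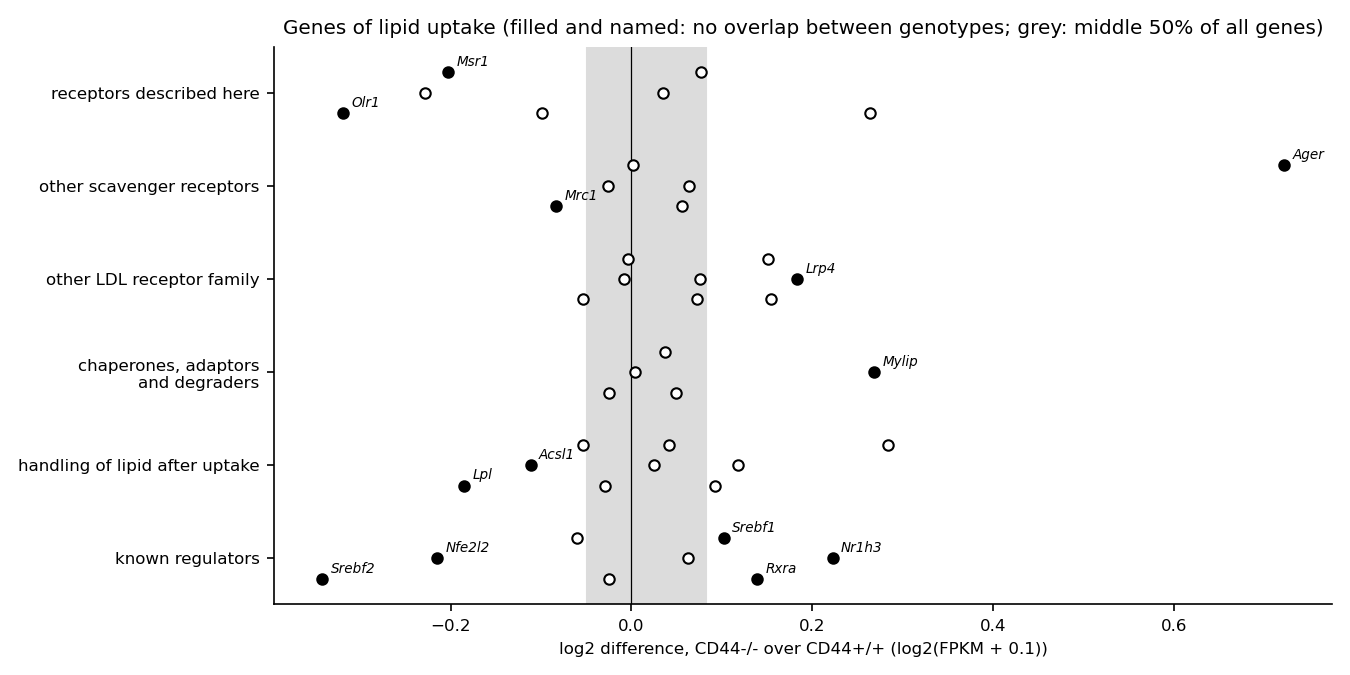
Log2 difference, CD44-/- over CD44+/+ (horizontal axis), of the genes tested in the receptor group and in 5 lists of genes that act with them (rows, with points set at 3 heights only for legibility). Filled and named points had no overlap between the genotypes, open points did, and the grey band holds the middle 50% of all genes tested; no gene shown passed an adjusted p of 0.05.

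Markers of other cells that can be present in BAL were measured beside the receptors. Summed over 6 airway secretory markers, levels were 823 to 1352 FPKM in CD44+/+ and 637 to 1113 FPKM in CD44-/- samples, of the order of Cd68. All 6 had a negative log2 difference, with a median of -0.32, where 44.2% of all genes tested were negative, and none had an unadjusted p under 0.05. Alveolar type 2 markers summed to 39.2 to 49.5 and 46.6 to 113 FPKM, the latter highest in CD44-/- replicate 3. Neutrophil markers summed to 33.7 to 80.1 and 46.3 to 53.1 FPKM, and erythroid markers to 2.12 to 17.3 and 2.89 to 56.5 FPKM, highest in CD44-/- replicate 2. Each of these sums overlapped between the genotypes, but single markers in them did not. The type 2 sum held Abca3 at 23.8 to 27.9 FPKM with overlap (log2 difference -0.04). Sftpb, the gene of surfactant protein B, was at 1.26 to 2.13 FPKM in CD44+/+ and 2.32 to 6.53 FPKM in CD44-/- samples (log2 difference 1.24, limma adjusted p = 0.369). Sftpc (1.44, limma adjusted p = 0.591) and Sftpa1 (0.82, limma adjusted p = 0.678) were higher in CD44-/- in all 3 same-numbered pairs with overlap. Sftpd (0.08, limma adjusted p = 0.978) also overlapped, and was lower in CD44-/- in 2 of the 3 pairs. Slc34a2 averaged under 0.5 FPKM and was not tested. The 5 neutrophil markers tested differed in sign, 2 positive and 3 negative, from -1.30 for Retnlg and -1.06 for S100a9, both with overlap, to 0.33 for Csf3r, which had none (limma adjusted p = 0.499). The 9 interstitial macrophage and monocyte markers summed to 10.2 to 11.8 FPKM in CD44+/+ and 13.5 to 15.7 FPKM in CD44-/- samples without overlap. Of the 5 of these markers that were tested, C1qa (log2 difference 0.89, limma adjusted p = 0.294) and C1qc (0.83, limma adjusted p = 0.471) had no overlap. Over all genes tested, 11.6% had none. Ccr2, C1qb and Itgam had positive log2 differences with overlap. The markers not tested were split, with Cx3cr1 and Lyve1 higher and Ly6c2 and Folr2 lower in the CD44-/- mean. The part of any of these cells in the receptor values was not tested. Endothelial markers, among them Cdh5 and Gpihbp1 at 0 in all samples, summed to at most 0.112 FPKM, fibroblast markers to at most 0.276 FPKM and lymphocyte markers to at most 0.947 FPKM.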

How the data were processed

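RNA of AMs pooled from the BAL of more than 1 mouse per sample was sequenced on an Illumina NextSeq from stranded mRNA libraries. The authors used STAR to align the paired reads (mm10) and Cufflinks to compute the deposited FPKM values per gene, normalized for transcript length and mapped fragments. The deposited table also holds the authors' mean FPKM and Cuffdiff fold changes, p-values and q-values, none of which were used. Its gene name and position columns stand in another order than the gene identifiers (0 matching rows), so values were taken by identifier and positions from GENCODE vM21. In all, 1 gene lacked a value and was left out, and 101 identifiers had several gene names.

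Genotype and replicate number came from the sample labels. The 10800 of 24341 genes that averaged 0.5 FPKM or more were compared in R 4.3.3 with limma 3.58.1 on log2(FPKM + 0.1), two-sided, with an intensity trend and Benjamini-Hochberg adjustment over all genes. The fit was tested on simulated data in which the samples were drawn independently. The changes put in were larger than any receptor difference in the main fit. The simulation therefore does not show how often differences of that size would be found. The labels do not say whether same-numbered samples were collected together. Their deviations from the genotype means correlated by 0.212, 0.132 and 0.211 across genes for replicates 1, 2 and 3, all above 0.1, so the replicate number was also fitted as a block. Other alternatives were the pseudocount, the filter, median-ratio scaling, quantile normalization, the variance model and leaving out each sample. FPKM carries no counts, so no interval for counting error is given. The genes named were the receptors, Cd44, the listed genes that passed or did not overlap, the 2 genes closest in profile to each receptor, and a few abundant or near-absent listed genes chosen after their values were seen. The receptors and lists were chosen with earlier results of these data known. Results for a few of the genes these rules select are not reported here.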

Additional observations from a re-analysis of the deposited data

How the results depend on the processing

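The receptor genes kept the sign of their log2 difference and stayed above an adjusted p of 0.05 in the 15 alternative fits, except for Olr1 and Lrp1. Olr1 passed without CD44+/+ replicate 1 (log2 difference -0.38, limma adjusted p = 0.0277), which made 1 receptor gene in place of 0, and its adjusted p was 0.102 to 0.579 in the other 14. With each sample left out in turn, between 0 and 1 receptor genes passed, and log2 differences were -0.38 to -0.28 for Olr1, -0.35 to -0.15 for Cd36, -0.25 to -0.16 for Msr1, -0.15 to -0.03 for Scarb1, 0.06 to 0.11 for Cd68 and 0.03 to 0.53 for Marco. Lrp1 went from -0.11 to 0.19, and was negative without CD44+/+ replicate 1 (-0.11) and without CD44-/- replicate 2 (-0.05). The summed level of the 8 genes differed by 41.8 FPKM between the genotype means (CD44-/- minus CD44+/+), and by -43.3 to 153.8 FPKM with samples left out. Of all genes tested 12 passed, 7 with no filter, and 6 to 36 with samples left out. The replicate block (9 genes passed) changed the call of no receptor gene. The causes of these shifts were not tested. Absolute depth is unknown, so no detection limit can be given for Vldlr.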
